A study of Saccharomyces cerevisiae with 18 samples.

Results

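RNA was compared between budding yeast (Saccharomyces cerevisiae) cells of genotype hmo1Δ;top2-1 and hmo1Δ cells, both grown at 28 °C and held for 60 min at 37 °C, a comparison of Top2 inactivation in cells that lack Hmo1. Of the 7126 features in the deposited tables, 5947 had a mean of at least 20 expected counts over these 2 libraries and make up the set described here, of which 5537 are coding genes of the nuclear genome. The series holds 18 samples on Hmo1 and the topoisomerases Top1 and Top2, 5 of them RNA libraries. The 4 RNA libraries from log-phase cultures at 37 °C carried hmo1Δ;top2-1, hmo1Δ, top2-1 and wild type, and top2-1 against wild type gives the matching comparison with Hmo1 present. The remaining RNA library, from wild-type cells in S phase at 28 °C, entered the scaling alone. Libraries were strand-specific, made from polyadenylated RNA after removal of ribosomal RNA and read on the Ion Proton.

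Top2 is the type II topoisomerase that passes one DNA duplex through another, which removes supercoils during transcription and unlinks sister chromosomes. The allele top2-1 encodes an enzyme that works at low temperature and is inactive at 37 °C, so the heat shift of the culture is also the inactivation. Hmo1 is a high-mobility-group box protein that binds ribosomal DNA and the promoters of many ribosomal protein genes and bends and bridges DNA. Yeast at 37 °C induces chaperone genes through the heat shock factor Hsf1 and a broad general stress programme through Msn2 and Msn4, while genes for making ribosomes are turned down.

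Each genotype was 1 library, so no spread between replicates exists and no p-value is given. Differences between genotypes, between cultures and between libraries cannot be told apart. Ratios are log2 ratios of CPM (counts scaled to library size) after scaling by trimmed mean of M-values (TMM), with a prior count of 2. Their 95% exact (Clopper-Pearson) intervals cover counting error only, since reads copied by PCR without molecular identifiers are not independent molecules. A feature was called higher or lower where it differed at least 2-fold.

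The gene deleted in both strains was checked first. HMO1 (YDR174W, chromosome IV, 812110 to 812850 in the R64 assembly) was listed at 0 counts in hmo1Δ;top2-1 and in hmo1Δ cells, against 1327 counts in top2-1 and 1152 counts in wild-type cells. TOP2 itself (YNL088W, chromosome XIV, 457704 to 461990) was expressed in each strain, at 141 CPM in hmo1Δ;top2-1 and 106 CPM in hmo1Δ cells, with 138 CPM in top2-1 and 158 CPM in wild-type cells. Its ratio of hmo1Δ;top2-1 over hmo1Δ was 0.41 (0.28 to 0.54). Because top2-1 alters the protein and not the amount of RNA, the TOP2 level does not check that label. TOP1, the type I topoisomerase that also relaxes supercoils, stood at 143 CPM in hmo1Δ;top2-1 and 108 CPM in hmo1Δ cells, a ratio of 0.40 (0.28 to 0.53).

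Auxotrophic and mating type markers were looked at next. TRP1, a tryptophan synthesis gene often used as a marker, was listed at 0 counts in hmo1Δ;top2-1 and in hmo1Δ cells, against 204 counts in top2-1 and 152 counts in wild-type cells. The 7 a-cell markers summed to 909 TPM (a level per transcript length) in hmo1Δ;top2-1 and 678 TPM in hmo1Δ cells, and the 4 alpha-cell markers to 30.4 TPM in hmo1Δ;top2-1 and 34.8 TPM in hmo1Δ cells. URA3, the uracil synthesis gene, was called lower, with 152 CPM in hmo1Δ;top2-1 and 391 CPM in hmo1Δ cells, beside 102 CPM in top2-1 and 114 CPM in wild-type cells. The hmo1Δ;top2-1 library held 9274003 expected counts, 97.8% of them in nuclear coding genes, and the hmo1Δ library 7096283, with 98.1%. The top2-1 library held 5591118 and the wild-type library 4752471.

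Most RNA levels were close in hmo1Δ;top2-1 and hmo1Δ cells. RNA came from whole cultures, in which fewer cells with a transcript and less RNA per cell cannot be told apart. The middle 50% of the 5947 features lay between -0.24 and 0.24 around a median of 0.00, and 80.2% lay within 0.5 of 0. At least 2-fold higher in hmo1Δ;top2-1 were 82 features (1.38% of all), and at least 2-fold lower were 139 (2.34%). The counting interval lay wholly beyond 2-fold for 16 of the higher and 89 of the lower features. The split between the directions depended on the scaling and the filter: 37.1% of the calls were higher here, against 66.3% with library totals (171 higher and 87 lower), 54.9% with the deposited TPM, 48.0% without a count filter, 26.7% with coding genes alone and 20.3% for features that averaged at least 100 counts. Library totals moved the median of all features to 0.19 and TPM moved it to 0.15, so values below are read relative to a median near 0.

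The features called higher and those called lower were of different kinds. Of all 5947 features, 5537 were nuclear coding genes and 335 had no match in the reference. Of the 139 lower features, 119 were nuclear coding genes, 100 of them with a mean of at least 100 counts, and 12 had no match. Of the 82 higher features, 40 were nuclear coding genes, 33 had no match in the reference, 5 were small nucleolar RNAs (snoRNAs), 2 were frames of Ty retrotransposons and 2 were other RNAs. In all 54 of the 82 had a mean under 100 counts, against 29 of the 139 lower features and 584 of all 5947. Near the count threshold, the 8 features from 20 to 21 counts had a median ratio of 0.42, and the 16 just outside, from 19 to 20 counts, had 0.68.

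**Figure D1:**
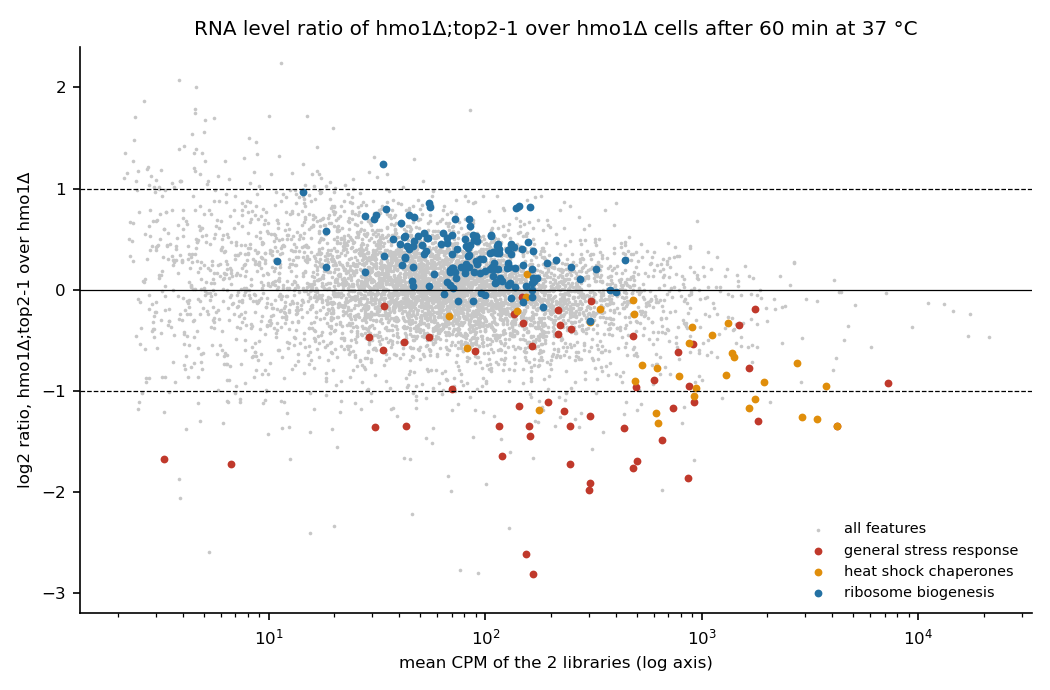
Log2 ratio of hmo1Δ;top2-1 over hmo1Δ (vertical axis, dashed lines at 2-fold) against the mean CPM of both libraries (horizontal log axis) for the 5947 features, of which 3 lie outside the axes. Grey points are all features, red the general stress list, orange heat shock chaperones and blue ribosome biogenesis genes: the 53 stress genes lie below 0, and 129 of the 142 ribosome biogenesis genes lie above it.

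Genes of the general stress response were lower in hmo1Δ;top2-1 than in hmo1Δ cells. Each of the 53 listed genes had a ratio below 0 (49 with library totals and 50 with TPM), and 27 of them (50.9%, beside 2.34% of all features) were at least 2-fold lower, with a median of -1.11 against 0.00 for all features. Together they took 2.43% of the counts in hmo1Δ;top2-1 and 4.20% in hmo1Δ cells, and 1.53% in top2-1 and 1.04% in wild-type cells. For 51 of the 53 the hmo1Δ library was the highest of the 4 at 37 °C, against 32.2% of all coding members. For 50 of the 53 the level in hmo1Δ;top2-1 lay between hmo1Δ and wild type. Both counts share the hmo1Δ library with the ratio, so they describe levels and are no separate evidence. The list was written with earlier results on hmo1Δ against wild type known, and both comparisons use the hmo1Δ library. Without the 9 genes that those results had named, the other 44 had a median of -0.94 with 19 at least 2-fold lower.

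The leading stress genes show the range. GRE1 encodes a hydrophilin made under osmotic stress and drying. It had 41.2 CPM in hmo1Δ;top2-1 and 291 CPM in hmo1Δ cells, with 11.9 CPM in top2-1 and 8.04 CPM in wild-type cells, and its ratio of -2.81 (-2.97 to -2.67) was the lowest among coding genes that averaged at least 100 counts. TKL2, a transketolase of the pentose phosphate pathway, had 43.3 CPM in hmo1Δ;top2-1 and 266 CPM in hmo1Δ cells, a ratio of -2.61 (-2.77 to -2.47). In both genes the double mutant still stood above top2-1 and wild type, and TKL2 had 23.1 CPM in top2-1 and 15.4 CPM in wild-type cells. Further enzymes of central carbon metabolism, the cytosolic aldehyde dehydrogenase ALD3 and the 6-phosphogluconate dehydrogenase GND2, lay at -1.98 (-2.08 to -1.89) and -1.91 (-2.0 to -1.82). ALD3 had 121 CPM in hmo1Δ;top2-1 and 479 CPM in hmo1Δ cells, and GND2 had 127 CPM in hmo1Δ;top2-1 and 479 CPM in hmo1Δ cells.

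Other stress genes with high levels were lower as well. MSC1, a gene with a role in meiotic recombination that is also induced by stress, had 371 CPM in hmo1Δ;top2-1 and 1349 CPM in hmo1Δ cells (-1.86, -1.92 to -1.81). RTN2, a reticulon of the endoplasmic reticulum, had 217 CPM in hmo1Δ;top2-1 and 740 CPM in hmo1Δ cells (-1.77, -1.84 to -1.70), and DCS2, a relative of the scavenger decapping enzyme Dcs1, had 236 CPM in hmo1Δ;top2-1 and 765 CPM in hmo1Δ cells (-1.70, -1.77 to -1.63). The cytosolic catalase CTT1, which breaks down hydrogen peroxide, was at 115 CPM in hmo1Δ;top2-1 and 378 CPM in hmo1Δ cells (-1.72, -1.82 to -1.62). In top2-1 and in wild-type cells these 4 genes stood below their hmo1Δ;top2-1 level, MSC1 with 152 CPM in top2-1 and 94.6 CPM in wild type and CTT1 with 45.2 CPM in top2-1 and 40.9 CPM in wild type. At the other end of the list, TMA17, a proteasome assembly factor, lay at -0.11 (-0.19 to -0.04) and YPR1, an aldo-keto reductase, at -0.07 (-0.19 to 0.04). The signs of both turned with library totals, to 0.07 for TMA17 and 0.12 for YPR1, and with TPM, to 0.01 for TMA17 and 0.08 for YPR1.

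HSP12 and HSP26 are widely used reporters of the response. HSP12, a small membrane-associated protein induced by many stresses, had 4982 CPM in hmo1Δ;top2-1 and 9427 CPM in hmo1Δ cells, with 2547 CPM in top2-1 and 956 CPM in wild-type cells, a ratio of -0.92 (-0.94 to -0.90). HSP26, a small heat shock protein that holds unfolded proteins, had 2368 CPM in hmo1Δ;top2-1 and 6037 CPM in hmo1Δ cells, with 1090 CPM in top2-1 and 436 CPM in wild-type cells. Its ratio was -1.35 (-1.37 to -1.33) with Hmo1 absent and 1.32 (1.26 to 1.39) with Hmo1 present. The levels of both genes ran from hmo1Δ at the top through the double mutant and top2-1 to wild type. MSN4, which encodes one of the activators of this programme, was at 201 CPM in hmo1Δ;top2-1 and 232 CPM in hmo1Δ cells, a ratio of -0.20.

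**Figure D2:**
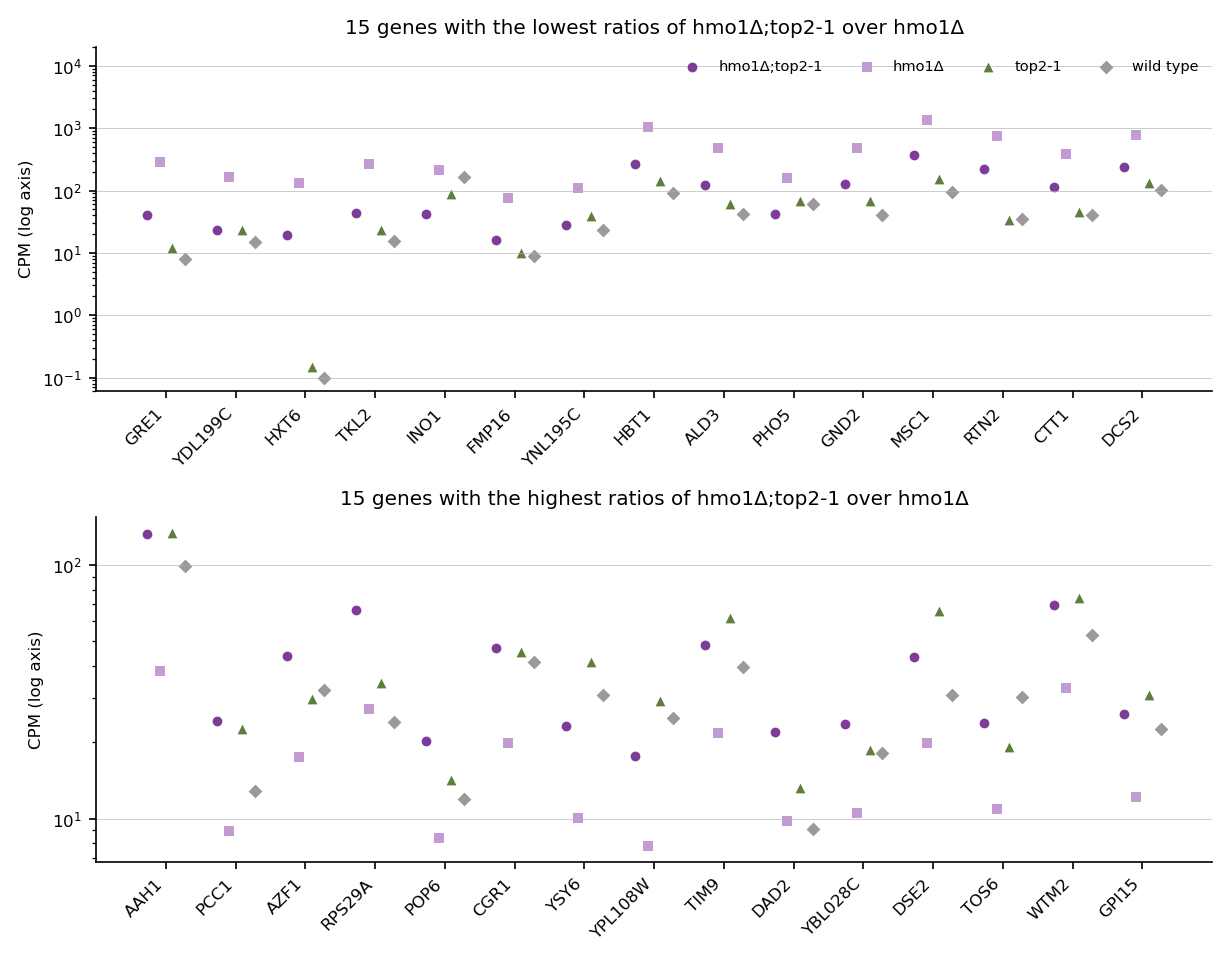
CPM (log axis) in the 4 libraries at 37 °C for the 15 coding genes with the lowest ratios (upper panel) and the 15 with the highest (lower panel) among those averaging at least 100 counts. Circles are hmo1Δ;top2-1, squares hmo1Δ, triangles top2-1 and diamonds wild type, and HXT6, listed at 0 in wild type, is drawn at 0.1: in the upper panel the hmo1Δ square stands above the other 3 points of each gene, and in the lower panel it stands lowest in 13 of 15.

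The reserve carbohydrate genes followed the stress list. Of 21 genes for trehalose and glycogen, which store glucose and protect cells from heat, 19 were below 0, with a median of -0.75. At least 2-fold lower were 7 (33.3%, beside 2.34% of all features). GPH1, glycogen phosphorylase, had 435 CPM in hmo1Δ;top2-1 and 1399 CPM in hmo1Δ cells, with 211 CPM in top2-1 and 161 CPM in wild-type cells (-1.68, -1.74 to -1.63). GSY1, a glycogen synthase, had 62.2 CPM in hmo1Δ;top2-1 and 174 CPM in hmo1Δ cells (-1.48, -1.62 to -1.34). The trehalose synthesis genes TPS1, TPS2 and TSL1 lay at -0.89, -0.84 and -0.73. The glycogen regulator PIG1 and the glycogenin GLG2 were close to 0, at 0.01 (-0.26 to 0.29) and 0.08 (-0.18 to 0.34).

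Genes of the heat shock chaperone list, which includes HSF1 and is not limited to targets of Hsf1, were also lower. Both cultures had the same heat shift. Of 33 genes, 32 were below 0 (30 with library totals and with TPM), with a median of -0.74. At least 2-fold lower were 9 (27.3%, beside 2.34% of all features). The 33 genes took 3.02% of the counts in hmo1Δ;top2-1 and 4.98% in hmo1Δ cells, and 3.90% in top2-1 and 4.35% in wild-type cells. So for this list the hmo1Δ;top2-1 library held the smallest share of the 4, and 9 of the 33 genes were above their wild-type level in it. The median of hmo1Δ over wild type, which shares the hmo1Δ library, was 0.15.

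Most chaperone families lay on the lower side. The disaggregase HSP104 had 1715 CPM in hmo1Δ;top2-1 and 4097 CPM in hmo1Δ cells, with 1884 CPM in top2-1 and 2114 CPM in wild-type cells (-1.26, -1.28 to -1.23). The Hsp70 gene SSA1 had 1992 CPM in hmo1Δ;top2-1 and 4829 CPM in hmo1Δ cells (-1.28), and the mitochondrial disaggregase HSP78 had 359 CPM in hmo1Δ;top2-1 and 898 CPM in hmo1Δ cells (-1.32, -1.38 to -1.26). The Hsp90 genes HSP82 and HSC82 lay at -0.95 and -0.73, the Hsp40 genes YDJ1 and SIS1 at -0.77 and -0.74, and the ribosome-bound Hsp70 genes SSB1 and SSB2 at -0.45 and -0.33. HSF1, which encodes the heat shock factor and is itself a member, was at 151 CPM in hmo1Δ;top2-1 and 158 CPM in hmo1Δ cells (-0.07, -0.18 to 0.04). The sign for HSF1 turned with library totals (0.12) and TPM (0.09). The one member above 0 was CDC37, a kinase co-chaperone of Hsp90, at 0.16 (0.04 to 0.27). Genes such as SSA1 and SSA2, or HSP82 and HSC82, are near-identical copies whose reads may be split between them with error.

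Chaperones of the endoplasmic reticulum did not share this direction. Of 21 genes, 13 were above 0, the median was 0.12 and none was called. KAR2, the Hsp70 of that compartment, had 1366 CPM in hmo1Δ;top2-1 and 1717 CPM in hmo1Δ cells, against 4699 CPM in top2-1 and 5823 CPM in wild-type cells. Its ratio was -0.33 (-0.37 to -0.30) with Hmo1 absent and -0.31 with Hmo1 present, and both strains without Hmo1 had less KAR2 RNA than the strains with it. At the upper end were SCJ1, an Hsp40 partner of Kar2, at 0.63 (0.50 to 0.76) and FPR2, a prolyl isomerase, at 0.59 (0.40 to 0.79).

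Oxidative stress, cell wall and phosphate genes were lower by smaller amounts. In the oxidative stress list 4 of 30 genes (13.3%, beside 2.34% of all features) were at least 2-fold lower. The list had 27 genes below 0 (19 with library totals and 22 with TPM), with a median of -0.34. After CTT1 its lowest members were the NADPH oxidoreductase OYE3, with 10.8 CPM in hmo1Δ;top2-1 and 28.4 CPM in hmo1Δ cells (-1.38, -1.74 to -1.06), and the peroxiredoxin TSA2 (-1.13). TRX1, a thioredoxin, was the highest at 0.35 (0.09 to 0.62). In the cell wall list 28 of 33 genes were below 0 and 2 (6.06%) were called lower, with a median of -0.43. PIR3, a wall glycoprotein, had 462 CPM in hmo1Δ;top2-1 and 1151 CPM in hmo1Δ cells (-1.32, -1.37 to -1.27), and CIS3, a related glycoprotein, lay at 0.45 (0.31 to 0.59).

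The phosphate regulon supplies phosphate when it is scarce and is a classic case of promoter chromatin control in yeast. Of its 19 genes 18 were below 0 and 4 at least 2-fold lower (21.1%, beside 2.34% of all features), with a median of -0.67. PHO5, the secreted acid phosphatase, had 41.9 CPM in hmo1Δ;top2-1 and 159 CPM in hmo1Δ cells, with 66.9 CPM in top2-1 and 61.5 CPM in wild-type cells (-1.92, -2.09 to -1.77). PHO84, the high-affinity phosphate transporter, had 1303 CPM in hmo1Δ;top2-1 and 2807 CPM in hmo1Δ cells, with 845 CPM in top2-1 and 1113 CPM in wild-type cells (-1.11). PHO89, a sodium-phosphate cotransporter, lay at -1.67 (-1.92 to -1.45) and the glycerophosphoinositol transporter GIT1 at -1.24 (-1.49 to -1.02). PHO5 was thus lower in the double mutant than in any of the other 3 libraries, while PHO84 was below hmo1Δ and above the other 2. The kinase inhibitor PHO81 and the low-affinity transporter PHO90 lay at -0.00 and 0.15.

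Several of the lowest genes belong to glucose and inositol supply. HXT6, a high-affinity glucose transporter, had 19.3 CPM in hmo1Δ;top2-1 and 133 CPM in hmo1Δ cells (-2.77, -3.01 to -2.57), with 0.15 CPM in top2-1 and a listing at 0 in wild type. HXT7, a near-identical copy, had 387 CPM in hmo1Δ;top2-1 and 611 CPM in hmo1Δ cells (-0.66), and the reads of the pair cannot be divided with certainty. HXT5, a transporter of slow-growing cells, lay at -1.31 (-1.42 to -1.20). The low-affinity transporters HXT1 and HXT4 were on the other side, at 0.69 (0.58 to 0.80) and 0.60 (0.52 to 0.69), and HXT1 had 217 CPM in hmo1Δ;top2-1 and 134 CPM in hmo1Δ cells. INO1, the inositol phosphate synthase that starts inositol synthesis, had 41.7 CPM in hmo1Δ;top2-1 and 214 CPM in hmo1Δ cells, with 87.3 CPM in top2-1 and 162 CPM in wild-type cells. It was lower in the strain with top2-1 in both pairs, by -2.35 (-2.52 to -2.21) without Hmo1 and by -0.89 with it. ITR1, the inositol transporter, was likewise at -1.07 without Hmo1 and -0.67 with it.

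Of the remaining genes among the 15 lowest, HBT1, which encodes a protein of polarized growth, had 264 CPM in hmo1Δ;top2-1 and 1042 CPM in hmo1Δ cells, with 143 CPM in top2-1 and 92.4 CPM in wild-type cells (-1.98, -2.05 to -1.92). YDL199C, a predicted sugar transporter, had 23.0 CPM in hmo1Δ;top2-1 and 162 CPM in hmo1Δ cells (-2.80, -3.02 to -2.61). FMP16, a mitochondrial protein of unknown function, lay at -2.22 (-2.50 to -1.98), and YNL195C, also of unknown function, at -1.99 (-2.20 to -1.81). Of the 119 coding genes called lower, 60 were on one of the lists and 59 on none. Of all 5537 coding members 1167 were on a list, and of the 40 called higher 4 were. The lists were chosen with earlier results of these data known. In 116 of the 119 (97.5%) the hmo1Δ library was the highest of the 4, against 32.2% of all coding members. The call itself uses the hmo1Δ library, so this count is a description of levels and no separate evidence.

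Ribosome biogenesis genes, whose products assemble and process ribosomal RNA, were slightly higher in hmo1Δ;top2-1 than in hmo1Δ cells. Of 142 genes, 129 were above 0, with a median of 0.30, while 1 was called higher and none lower, so nearly every member lay above 0 by a small amount. They took 1.78% of the counts in hmo1Δ;top2-1 and 1.31% in hmo1Δ cells, and 2.21% in top2-1 and 2.19% in wild-type cells. In 120 of the 142 the hmo1Δ library was the lowest of the 4, against 31.3% of all coding members. In 104 of the 142 the double mutant lay between hmo1Δ and wild type. Both counts share the hmo1Δ library with the ratio, so they describe levels and are no separate evidence. CGR1, needed to process the precursor of large-subunit RNA, had 47.3 CPM in hmo1Δ;top2-1 and 19.8 CPM in hmo1Δ cells, with 45.3 CPM in top2-1 and 41.7 CPM in wild-type cells (1.24, 0.98 to 1.54). FAF1, a factor of small-subunit assembly, had 19.1 CPM in hmo1Δ;top2-1 and 9.63 CPM in hmo1Δ cells (0.97, 0.58 to 1.40), and its levels in top2-1 and wild type were 47.9 and 47.0 CPM. The lowest were NOP1, the methyltransferase fibrillarin, at -0.31 (-0.39 to -0.23) and UTP7 of the small subunit processome at -0.17, whose sign turned with library totals (0.02).

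Other parts of the protein synthesis machinery lay on the same side by less. The 24 subunits of RNA polymerases I and III had a median of 0.17 with 18 above 0, led by RPC11 of polymerase III at 0.99 (0.58 to 1.47). The 56 genes for small-subunit ribosomal proteins had a median of 0.19 with 42 above 0, and the 80 of the large subunit 0.03 with 45 above 0. RPS29A was the one called gene of these lists, with 66.6 CPM in hmo1Δ;top2-1 and 27.1 CPM in hmo1Δ cells, and 34.3 CPM in top2-1 and 24.1 CPM in wild-type cells (1.29, 1.06 to 1.53). RPL29 and RPL18B followed at 0.92 (0.80 to 1.04) and 0.86 (0.77 to 0.96), while RPL43A and RPS14B lay lowest at -0.62 and -0.50. Most ribosomal proteins are encoded by paralogous pairs, and the split of reads within a pair is uncertain. The 68 mitochondrial ribosomal proteins had a median of 0.19 with 54 above 0.

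The leading higher genes came from varied functions, but the coding genes called higher were short. Their median length was 424.5 bases, against 1182 for those called lower and 1245 for all coding members. Of the 40 called higher, 25 were under 500 bases, a class in which 22 genes were called lower. AAH1, the adenine deaminase of purine salvage, had 132 CPM in hmo1Δ;top2-1 and 38.4 CPM in hmo1Δ cells, with 134 CPM in top2-1 and 99.5 CPM in wild-type cells (1.78, 1.6 to 1.98). PCC1, a subunit of the KEOPS complex that modifies transfer RNA, had 24.3 CPM in hmo1Δ;top2-1 and 8.96 CPM in hmo1Δ cells (1.41, 1.03 to 1.86). AZF1, a zinc finger transcription factor, had 43.8 CPM in hmo1Δ;top2-1 and 17.5 CPM in hmo1Δ cells, with 29.7 CPM in top2-1 and 32.1 CPM in wild-type cells (1.31, 1.04 to 1.62). AAH1 and PCC1 were thus near their top2-1 level in the double mutant, and AZF1 was above the other 3 libraries. POP6, of RNase P and RNase MRP, lay at 1.25, the small secretory pathway gene YSY6 at 1.17, TIM9, a carrier chaperone of the mitochondrial intermembrane space, at 1.15, DAD2 of the kinetochore DASH ring at 1.14 and WTM2, a transcriptional modulator, at 1.08. YPL108W and YBL028C, of unknown function, were at 1.15 and 1.14, and GPI15 of glycolipid anchor synthesis at 1.07. In 33 of the 40 coding genes called higher (82.5%) the hmo1Δ library was the lowest of the 4, against 31.3% of all coding members, a count that again shares the library with the call.

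Cell cycle and chromosome genes were looked at because Top2 acts on sister chromosomes. The 46 G1/S genes had a median of 0.17 with 30 above 0, and 1 was called, TOS6, a wall protein controlled by the G1/S factor SBF, with 23.9 CPM in hmo1Δ;top2-1 and 11.0 CPM in hmo1Δ cells (1.11, 0.75 to 1.51). SVS1, another SBF target, lay at 0.87 (0.59 to 1.17), while the mannosyltransferase MNN1 lay at -0.50. The 22 condensin, cohesin and Smc5/6 genes had a median of 0.21 with 18 above 0, led by NSE4 at 0.94 (0.55 to 1.41) and the cohesin regulator PDS5 at 0.82 (0.61 to 1.05). The 27 G2/M genes had a median of -0.11, a sign that turned with library totals (0.07) and TPM (0.04).

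Histone genes split by gene and not by protein. The median of 11 genes was 0.06 and none was called. HTA1, for histone H2A, had 462 CPM in hmo1Δ;top2-1 and 767 CPM in hmo1Δ cells (-0.73, -0.79 to -0.68), while HTA2, for nearly the same protein, had 116 CPM in hmo1Δ;top2-1 and 115 CPM in hmo1Δ cells (0.02). HHF2, for histone H4, had 516 CPM in hmo1Δ;top2-1 and 285 CPM in hmo1Δ cells (0.85, 0.78 to 0.93), while its twin HHF1 lay at -0.19. HTB2, for H2B, was at 0.64 and the linker histone HHO1 at -0.72.

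Among topoisomerases and high-mobility-group proteins none of the 13 measured genes was called. TOP3, the type I enzyme that works with the helicase Sgs1, had 25.3 CPM in hmo1Δ;top2-1 and 42.7 CPM in hmo1Δ cells (-0.75, -1.0 to -0.52). NHP6B, a small HMG-box protein, had 151 CPM in hmo1Δ;top2-1 and 205 CPM in hmo1Δ cells (-0.44), and its paralog NHP6A had 95.03 CPM in hmo1Δ;top2-1 and 87.97 CPM in hmo1Δ cells (0.11, -0.03 to 0.26). The FACT subunits SPT16 and POB3 lay at 0.29 and 0.25.

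RNAs that mostly lack poly-A tails differed as well, at low counts, and their recovery after poly-A selection was not tested. Of 76 snoRNAs 19 passed the count threshold and each of these was above 0, with a median of 0.55. Among the 19, 5 were called higher (26.3%, beside 1.38% of all features). In top2-1 over wild type the same 19 had a median of 0.71, with 17 above 0 and 6 at least 2-fold higher. SNR30, needed for early cleavage of ribosomal RNA, had 399 counts in hmo1Δ;top2-1 and 182 counts in hmo1Δ cells (0.55, 0.30 to 0.82), and SNR82, the highest, had 70.0 counts in hmo1Δ;top2-1 and 15.0 counts in hmo1Δ cells (1.54, 0.83 to 2.56). The 5 mitochondrial genome features that passed, of 54, were below 0, with a median of -1.40. The mitochondrial ribosomal RNA 21S_RRNA had 294 counts in hmo1Δ;top2-1 and 548 counts in hmo1Δ cells (-1.47, -1.68 to -1.27). Residual nuclear ribosomal RNA took 0.0105% of the counts in hmo1Δ;top2-1 and 0.0379% in hmo1Δ cells, and its 4 members, copies of the same repeat, had ratios from -3.43 to -1.46. The share was 0.0528% in top2-1 and 0.0477% in wild-type cells. Whether these shares reflect what depletion left or the amount of ribosomal RNA in the cells was not tested.

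Ty elements and features without a reference match were among those called higher. Of 87 Ty frames 25 passed, with a median of 0.36 and 2 called higher (8%, beside 1.38% of all features). Copies of one Ty family share reads. YMR045C, the highest, had 243 counts in hmo1Δ;top2-1 and 48.3 counts in hmo1Δ cells (1.72, 1.31 to 2.24). YDL086C-A, named for its value, had 232 counts in hmo1Δ;top2-1 and 0.03 in hmo1Δ cells, at least 52.0-fold higher against a floor of 3 counts in the hmo1Δ library. With Hmo1 present it had 16.0 counts in top2-1 and 0.3 in wild-type cells. YGR115C, chosen the same way, had 94.3 counts in hmo1Δ;top2-1 and 0 in hmo1Δ cells, at least 21.1-fold higher, and was listed at 0 in top2-1 and wild type. The reference table gives neither a class, and estimated counts of features that overlap other genes are uncertain.

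The gene lists were then read in both pairs, hmo1Δ;top2-1 over hmo1Δ and top2-1 over wild type, which share no library. With Hmo1 present 60 of 5855 features (1.02%) were at least 2-fold higher in top2-1 than in wild type and 34 (0.581%) lower. The general stress genes stood on opposite sides, with a median of -1.11 in hmo1Δ;top2-1 over hmo1Δ and 0.45 in top2-1 over wild type, where 42 of the 53 were above 0. The G1/S genes were opposite in the other sense, at 0.17 and -0.27, with 41 of 46 below 0 in top2-1 over wild type. Oxidative stress genes stood at -0.34 and 0.19. Chaperones were below 0 in both, at -0.74 and -0.17, and inositol and lipid genes were too, at -0.34 and -0.37. Ribosome biogenesis genes, at 0.30 without Hmo1, had a median of 0.00 with it.

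**Figure D3:**
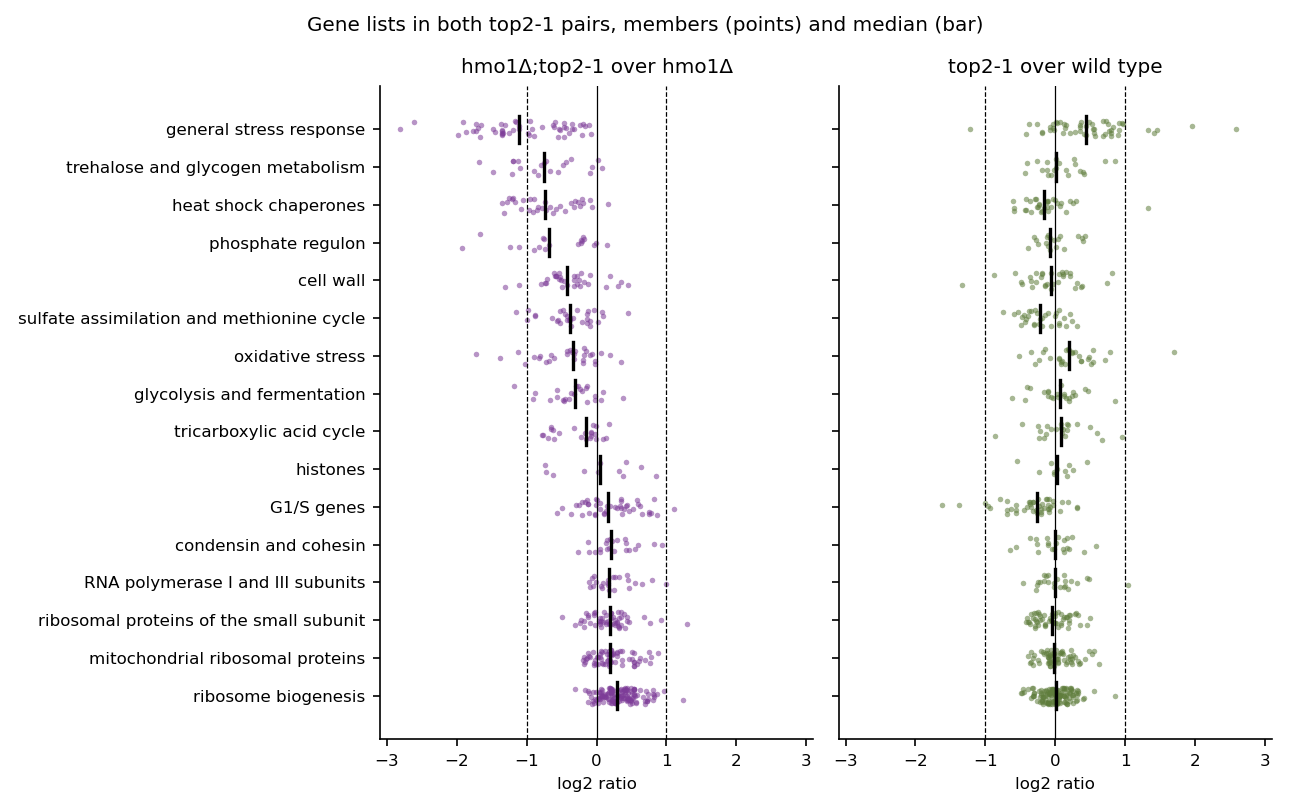
Log2 ratios of the members of 16 gene lists (points, spread vertically for visibility) and their median (black bar), for hmo1Δ;top2-1 over hmo1Δ (left) and top2-1 over wild type (right). Dashed lines mark 2-fold: the stress list has its median at -1.11 on the left and 0.45 on the right, and the G1/S list at 0.17 and -0.27.

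Feature by feature, the 2 ratios were weakly correlated. Over the 5820 features that passed the count threshold in both pairs, Pearson's r was 0.08 and Spearman's rho 0.16, and 55.7% had the same sign. These are correlations across genes, which are not independent replicates, and all 4 cultures had the same heat shift. Of these features, 64 were called higher and 122 lower in hmo1Δ;top2-1 over hmo1Δ, and 54 higher and 31 lower in top2-1 over wild type. Higher in both were 5, which is 7.81% of the first list and 9.26% of the second, beside 0.928% of all 5820 features called higher in top2-1 over wild type. Lower in both was none, beside 0.533% of all features called lower in top2-1 over wild type. Of the 122 lower in hmo1Δ;top2-1, 75 were above 0 in top2-1 over wild type, and so were 44 of the 64 higher. The median of top2-1 over wild type was 0.17 for the 122, 0.27 for the 64 and 0.00 for all 5947 features.

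The difference of the ratios, with Hmo1 absent minus with Hmo1 present, was at least 1 for 108 features (1.86%) and at most -1 for 222 (3.81%). Among coding genes averaging at least 100 counts, the lowest differences belonged to genes that were lower in hmo1Δ;top2-1 than in hmo1Δ and higher in top2-1 than in wild type. SPG4, a gene of stationary phase survival, had 57.3 CPM in hmo1Δ;top2-1 and 180 CPM in hmo1Δ cells, and 25.9 CPM in top2-1 and 4.11 CPM in wild-type cells. Its ratios were -1.65 (-1.79 to -1.51) and 2.59 (2.03 to 3.35), a difference of -4.23. DDR2, a small stress protein, had 179 CPM in hmo1Δ;top2-1 and 426 CPM in hmo1Δ cells, and 84.1 CPM in top2-1 and 21.4 CPM in wild-type cells, a difference of -3.21. SRX1, the sulfiredoxin that repairs oxidized peroxiredoxins, had 19.4 CPM in hmo1Δ;top2-1 and 39.7 CPM in hmo1Δ cells, and 16.8 CPM in top2-1 and 5.00 CPM in wild-type cells, a difference of -2.72. SPG4, DDR2 and SRX1 each had the lowest level in wild type and the highest in hmo1Δ, with both top2-1 strains between. GRE1, YDL199C, TKL2, YNL195C and HSP26 completed the lowest 8, at differences from -3.43 to -2.67.

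The highest differences included several genes of the G1/S transition. SVS1 had 35.2 CPM in hmo1Δ;top2-1 and 19.2 CPM in hmo1Δ cells, and 51.3 CPM in top2-1 and 103 CPM in wild-type cells, a difference of 1.87. TOS4, a chromatin-associated SBF target, had 30.5 CPM in hmo1Δ;top2-1 and 17.9 CPM in hmo1Δ cells, and 47.1 CPM in top2-1 and 92.1 CPM in wild-type cells, a difference of 1.72. For both, wild type was the highest and hmo1Δ the lowest of the 4. CLN2, a G1 cyclin, had 56.3 CPM in hmo1Δ;top2-1 and 52.0 CPM in hmo1Δ cells, and 50.4 CPM in top2-1 and 131 CPM in wild-type cells. Its difference was 1.49, with the wild-type library above the other 3, which were alike. TOS6 (1.75), the spindle pole body gene SPC97 (1.59), YBL071C of unknown function (1.54), the wall protein gene SRL1 (1.52) and the ADP/ATP carrier AAC3 (1.44) were the others.

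**Figure D4:**
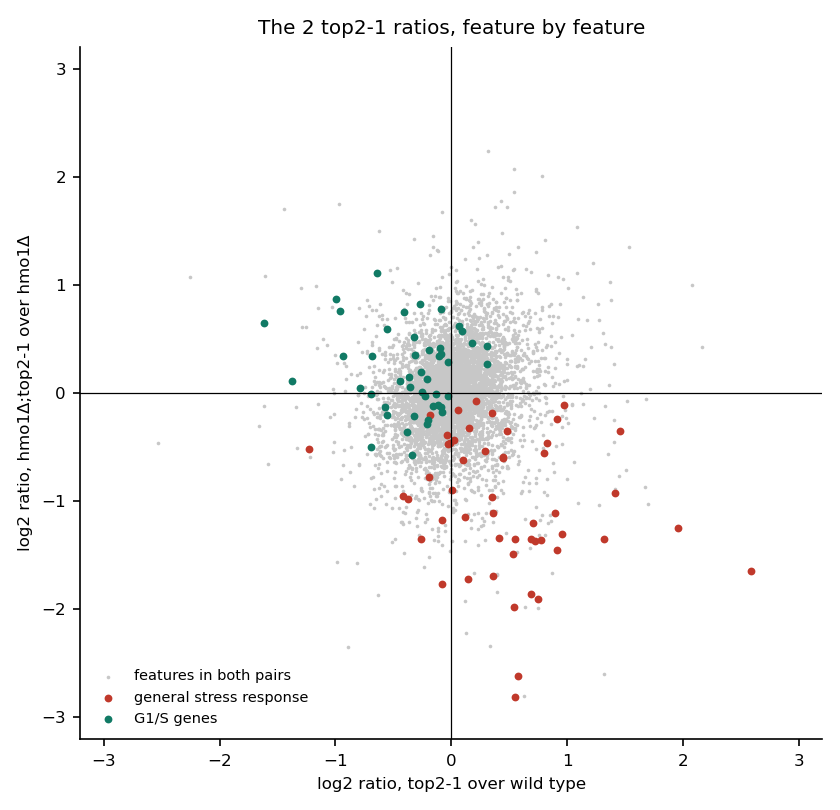
Log2 ratio of hmo1Δ;top2-1 over hmo1Δ (vertical axis) against that of top2-1 over wild type (horizontal axis) for the 5820 features of both pairs, of which 2 lie outside the axes. Red points are stress genes and green points G1/S genes: most stress genes lie below and to the right of the origin, most G1/S genes to its left.

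Coding length was examined because supercoils build up along long transcribed genes. In hmo1Δ;top2-1 over hmo1Δ, the 685 coding genes under 500 bases had a median of 0.14, and the 798 genes from 2000 up to 3000 bases had -0.08. The same classes stood at 0.17 and -0.09 in top2-1 over wild type. The Spearman correlation of the ratio with coding length, across genes, was -0.19 without Hmo1 and -0.30 with it. The 396 genes from 3000 up to 5000 bases were at -0.03 in hmo1Δ;top2-1 over hmo1Δ, above the class before them, and at -0.10 in top2-1 over wild type, below it. The 69 genes of 5000 bases or more were at 0.04 in both pairs, with none of the 69 called in hmo1Δ;top2-1 over hmo1Δ. Leaving out the stress, chaperone and ribosomal protein lists gave -0.19 and -0.31. With library totals, which lift all features by 0.19, the class from 2000 bases stood at 0.10, and with TPM at 0.08, so the sign of a class depends on the scaling while the order of the classes is relative.

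The 10 longest coding genes showed ratios close to 0. REA1, the giant dynein-like ATPase of ribosome assembly (14733 bases), had 223 CPM in hmo1Δ;top2-1 and 216 CPM in hmo1Δ cells (0.04, -0.05 to 0.14). DYN1, the dynein heavy chain (12279 bases), lay at 0.23 (0.08 to 0.39), TRA1, a subunit of the SAGA and NuA4 complexes (11235 bases), at 0.14, and NUM1, a cortical dynein anchor, at 0.12. The lowest were the Ras regulator IRA2 at -0.41 (-0.52 to -0.29) and the lipid transfer protein gene CSF1 at -0.29 (-0.45 to -0.13), followed by VPS13 at -0.23. TEL1, the checkpoint kinase, was at 0.15, IRA1 at 0.01 and the ubiquitin ligase TOM1 at -0.12, whose sign turned with library totals (0.07) and TPM (0.05).

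**Figure D5:**
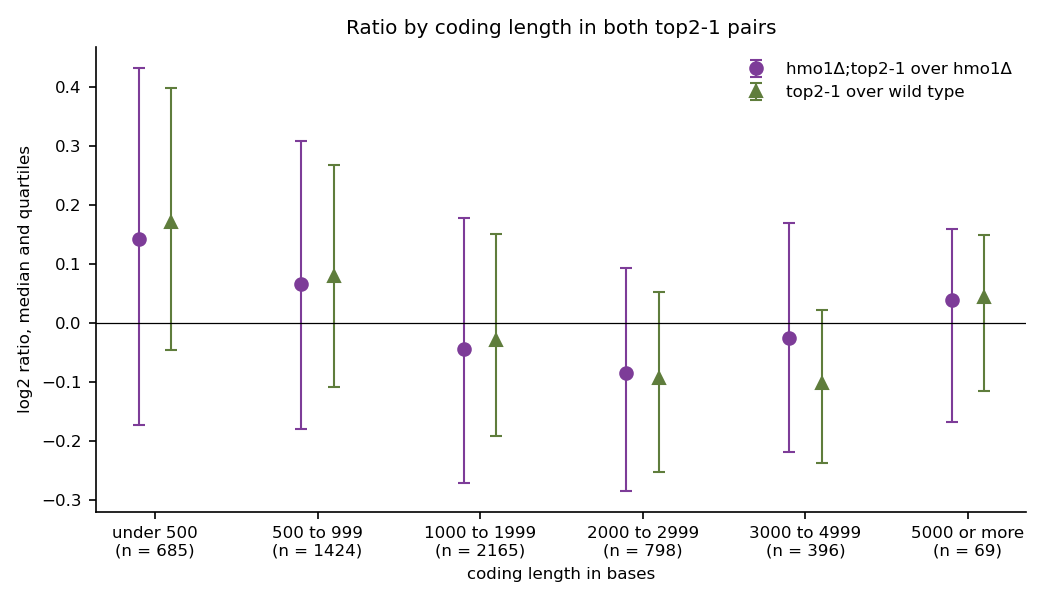
Median log2 ratio with quartiles (bars) by class of coding length, with the number of genes in hmo1Δ;top2-1 over hmo1Δ under each class. Circles are hmo1Δ;top2-1 over hmo1Δ and triangles top2-1 over wild type: the medians are 0.14 and 0.17 under 500 bases and -0.08 and -0.09 from 2000 up to 3000 bases, with quartiles that overlap between classes.

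Genes with an intron outside the ribosomal proteins were at a median of 0.16 (168 genes, median length 777 bases), against -0.01 for 5233 genes without one (1293 bases). Genes near chromosome ends held a larger share of lower calls. Within 20 kb of an end, 11 of 152 coding genes were at least 2-fold lower (7.24%), against 108 of 5385 beyond (2.01%), with medians of -0.06 and -0.00. Where the neighbour before the start is transcribed away, 43 of 2851 genes (1.51%) were lower, against 76 of 2683 (2.83%) where it runs in the same direction. By level in wild type, 43 of the 1108 genes in the lowest of 5 equal classes were called lower, and 24 of the 1108 in the highest class.

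The binding of Hmo1 and Top2 was read from the other files of the series. Peaks of Flag-tagged Hmo1 from the library with the control plasmid cover 3873927 bases in 1511 peaks, and the labels disagree on whether that strain also carries the topoisomerase mutations. Of 2489 coding genes with such a peak in the 500 bases before the start, 79 (3.17%) were at least 2-fold lower in hmo1Δ;top2-1 than in hmo1Δ cells, with a median of -0.05. Of 3048 genes without a peak, 40 (1.31%) were lower, with a median of 0.03. Peaks from the library with the plasmid for the bacterial topoisomerase TopA gave 67 of 2314 and 52 of 3223. Since Hmo1 is absent from both RNA strains, these peaks say where it binds in other cells. The Top2 interaction clusters came from wild-type cells at 28 °C, so they were not made under the heat shift of the RNA cultures. The labels used here name no genome build for that file. A cluster joining both ends was found for 309 genes, which had a median of -0.05. Of these 309 genes 4 were lower (1.29%) and none higher, against 115 of 5228 (2.20%) lower elsewhere.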

How the data were processed

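RNA from 5 yeast libraries was analysed, 1 per group. The authors deposited RSEM expected counts and TPM per feature, per the file headers, made with STAR and RSEM on R64, per the submitters' processing notes (versions not given in the sources used here). Expected counts were rounded for intervals. Hmo1 peaks came with a deposited peak score, which was not used, and Top2 interaction clusters came with tag counts deposited by the authors. The histone files were not used.

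Counts were scaled by TMM over the 5 RNA libraries (edgeR 4.0.16, R 4.3.3) and turned into log2 CPM with a prior count of 2, and a fold change is on that scale. edgeR and DESeq2 1.42.0 served for scaling alone, since 1 library a group leaves no test. Depth ran from 4752471 to 14770300 counts. Of 7126 features 6162 matched the RefSeq table of R64 and 964 kept their identifiers. Promoter motifs and sequences were not analysed here.

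Named genes are HMO1, TOP2, TOP1 and TRP1, the 15 lowest and 15 highest coding genes averaging at least 100 counts, the 2 lowest and 2 highest such members of each list, the 8 lowest and 8 highest differences between pairs and the 10 longest genes, of which 1 list member is not reported here. Others named (HSP12, MSN4, HXT7, TPS1, TPS2, TSL1, most chaperones and oxidative or phosphate genes, snoRNAs, Ty and unmatched features) were chosen after their values were seen. The members and lists were chosen with earlier results of these data known. Alternatives were library totals, DESeq2 size factors, TMM over the 4 libraries at 37 °C or the 2 compared, TPM, a prior count of 0.5, a mean of at least 100 counts, no filter, coding genes alone, other windows and a shorter stress list (added after seeing the data).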

Additional observations from a re-analysis of the deposited data

Results flagged for a closer look

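The results here went opposite ways in the pair without Hmo1 and the pair with it. Each pair has 1 library a side, so the difference was not tested. The general stress list had its median at -1.11 in hmo1Δ;top2-1 over hmo1Δ, with the middle 50% of its genes below 0, and at 0.45 in top2-1 over wild type, with the middle 50% above 0. The oxidative stress list stood in the same way at -0.34 and 0.19. These were 2 of the 40 lists with at least 5 members.

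Of the 30 coding genes with the lowest and highest ratios, 10 had counting intervals on opposite sides of 0 in the 2 pairs. The share among all coding genes was not counted, so whether 10 of 30 is unusual cannot be said. In hmo1Δ;top2-1 over hmo1Δ alone, the interval lay wholly above 0 for 1697 of the 5947 features and wholly below 0 for 1809. Lower in hmo1Δ;top2-1 than in hmo1Δ and higher in top2-1 than in wild type were GRE1 (-2.81 and 0.55), YDL199C (-2.80 and 0.63), TKL2 (-2.61 and 0.57), YNL195C (-1.99 and 0.75) and HBT1 (-1.98 and 0.63). The same held for ALD3 (-1.98 and 0.54), GND2 (-1.91 and 0.75), MSC1 (-1.86 and 0.69) and DCS2 (-1.70 and 0.36). TOS6 was higher in hmo1Δ;top2-1 than in hmo1Δ (1.11) but lower in top2-1 than in wild type (-0.64).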

How the results depend on the processing

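Of 2222 values recomputed under the alternatives, 1960 stayed within their counting interval or, for list medians, a 95% interval from ranks of member genes. That rank interval treats the genes of a list as independent and is not their spread. A sign turned for 46 values of 25 results, 23 of them with library totals and 19 with TPM, and each of these results was reported between -0.18 and 0.01. For 32 of the 46 the reported interval held 0, as for the galactose, iron, hexose transporter and topoisomerase list medians and for HSF1 and YPR1. The count of features at least 2-fold higher was 82, and 171 with library totals, 28 with a mean of at least 100 counts, 190 without a filter and 43 with coding genes alone. The count of lower features was 139, and 87 with library totals. Library totals lifted all features by 0.19 and TPM by 0.15. The ribosome biogenesis median of 0.30 then read 0.48 with library totals and 0.44 with TPM. The correlation of both ratios, 0.08, was 0.11 with a mean of at least 100 counts, and that with coding length, -0.19, was -0.16 with TPM. Where it did not hold 0, signs turned with library totals for the G2/M (0.073), tricarboxylic acid (0.042) and meiosis (0.011) medians, the length classes from 1000 (0.14) and 2000 bases (0.10), UTP7 (0.018), TOM1 (0.070) and TMA17 (0.074). With TPM they turned for G2/M (0.042), tricarboxylic acid (0.00691), both length classes (0.11 and 0.076), TOM1 (0.047) and TMA17 (0.012). Without a filter the medians of Ty frames (0.00) and of the mitochondrial genome (0.00) were 0, since most of their features have no counts. The stress median stayed between -1.12 and -0.92 over its alternatives. No paired analysis was possible because the labels give no replicate numbers and each group is 1 library, so no replicate could be left out either. Depth limits features near 20 counts, whose intervals span more than 2-fold.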

Other observations

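Central metabolism lay slightly lower in hmo1Δ;top2-1 than in hmo1Δ cells, to a degree that depended on the scaling. Of 24 glycolysis and fermentation genes 21 were below 0 (16 with library totals and with TPM), with a median of -0.31. TDH1, a glyceraldehyde phosphate dehydrogenase, had 2001 CPM in hmo1Δ;top2-1 and 3762 CPM in hmo1Δ cells (-0.91). HXK2, the main hexokinase on glucose, was on the other side at 0.37 (0.31 to 0.43). Of 40 respiratory chain genes 28 were below 0 (20 with library totals and 22 with TPM). Their median was -0.19 (-0.005 with library totals), from CYC7, a cytochrome c isoform, at -1.35 to ATP15 at 0.80. In sulfate assimilation and the methionine cycle 28 of 32 genes were below 0 (21 with library totals and 22 with TPM), with a median of -0.38. SAM2, an S-adenosylmethionine synthetase, had 509 CPM in hmo1Δ;top2-1 and 1137 CPM in hmo1Δ cells (-1.16, -1.21 to -1.11). Of 23 tricarboxylic acid cycle genes 20 were below 0, at a median of -0.15 whose sign depends on the scaling.

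Other lists lay close to 0. Amino acid synthesis had a median of -0.01 over 56 genes, from ARG4, argininosuccinate lyase, at -0.97 to LYS9 of lysine synthesis at 0.92. Adenine synthesis was at 0.07, the iron regulon at -0.01, the proteasome at -0.02, ergosterol synthesis at 0.10 and polymerase II elongation and Mediator genes at 0.12, with none of their members called. The DNA damage list was at -0.25 with 20 of 26 below 0 and none called, from DDR48, a stress protein, at -0.72 to the checkpoint gene RAD9 at 0.68 (0.49 to 0.87). Genes of the M/G1 phase and daughter separation had a median of -0.25, yet DSE2, a glucanase-like protein of daughter cells, was at 1.11 (0.85 to 1.41) without Hmo1 and 1.08 with it. The galactose genes were at -0.14, the pheromone response at 0.12 and meiosis genes at -0.18. The signs of the amino acid, iron, proteasome and galactose medians turned with library totals and with TPM, and that of the meiosis median with library totals.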
